A study of Mus musculus with 12 samples.

Results

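The 43 cell cycle genes described here encode proteins that copy DNA or carry a cell through mitosis, and 35 of them were measured among the 9809 genes with a symbol on the arrays. They were taken by gene symbol: every probe annotated with a member symbol was used if its detection p, the array software's comparison with negative control beads, was under 0.05 on at least 3 of 12 arrays. Of the 43, 16 are replication genes, all of them measured, and 27 are mitotic genes, of which 19 were measured. Ccna2 has 1 listed probe, which was detected on 1 array, and Ccnb1, Ccnb2, Bub1, Ube2c, Kif20a, Cenpe and Mki67 were not analysed here, since no probe is listed under their symbols. Of the 35 measured genes, 29 were detected on all 12 arrays and 6 on fewer (Cdc6 on 11, Kif11 on 10, Ccne2 on 9, and Ccne1, Tpx2 and Depdc1b on 8 each).

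The cells were lung cells carrying CD11c, an integrin found on alveolar macrophages and dendritic cells, and the labels name them antigen-presenting cells. They came from mice of strain B6(Cg)-Tyrc-2J/J aged 4 months, either wild type or Mir22-/-, that is, without the microRNA gene Mir22. From 2 months of age the mice had received nanoparticulate carbon black (nCB) or phosphate-buffered saline (PBS), with a labelled exposure of 1 month. This gave 4 groups of 3 arrays (wild-type PBS, wild-type nCB, knockout PBS and knockout nCB), and in every group the cells had been separated on an AutoMACS, a magnetic cell sorter. Nothing in the labels ties the arrays of a group to different animals, so the errors and p-values given here cover the spread between samples, which may be technical. Mir22 itself was not measured, so the genotype labels could not be checked on the deleted gene.

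A dividing cell first makes nucleotides and loads the MCM helicase onto its DNA, copies the DNA behind the sliding clamp PCNA, and then switches on CDK1 and the Aurora and Polo kinases to build a spindle and separate the chromosomes. Replication genes are transcribed around entry into S phase, largely through E2F factors, and mitotic genes later, largely through promoters with a cell cycle homology region (CHR) and CCAAT boxes. Resident alveolar macrophages are known to maintain themselves in part by local division in the undisturbed lung. In a bulk sample, more dividing cells and more RNA per dividing cell cannot be told apart.

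The promoters of replication and mitotic genes held different motifs, a feature that does not depend on the arrays. RefSeq promoter windows (build GRCm38.p6, 250 bases before to 50 after the start) were available for 35 of the 43 members and for 27025 genes in all. The E2F core was searched as TTCCCGC and its variants TTGCCGC, likewise TTCGCGC, and lastly TTGGCGC, the CHR as TTTGAA or else as TTCGAA, and the CCAAT box as CCAAT, all on both strands and with overlapping matches allowed. An E2F core was found in 9 of 14 replication promoters (64.3%) and in 3 of 21 mitotic promoters (14.3%), against 10.9% of all genes. A CHR was found in 16 of 21 mitotic promoters (76.2%) and in 2 of 14 replication promoters (14.3%), against 21.7% of all genes. CCAAT was present in 18 mitotic promoters (85.7%) and 9 replication promoters (64.3%), against 41.1% of all genes. These matches describe letters in a window, not bound sites. The 160 bases before the start are printed below for 2 helicase genes of the replication class and for 2 mitotic genes that passed a test in these data, and the genes were chosen because these stretches hold the motifs. Capitals mark the motifs, and a CCAAT box on the other strand reads ATTGG.
Mcm5, helicase subunit, chr8:75109349-75109508, plus strand: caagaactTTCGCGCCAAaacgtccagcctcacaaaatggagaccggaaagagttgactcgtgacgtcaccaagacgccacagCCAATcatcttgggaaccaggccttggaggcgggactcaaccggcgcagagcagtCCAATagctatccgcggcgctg
Mcm6, helicase subunit, chr1:128359706-128359865, minus strand: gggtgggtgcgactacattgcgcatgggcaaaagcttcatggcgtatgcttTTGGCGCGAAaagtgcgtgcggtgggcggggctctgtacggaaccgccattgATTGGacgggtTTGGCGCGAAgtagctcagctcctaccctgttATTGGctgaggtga
Cdk1, mitotic kinase, chr10:69352913-69353072, minus strand: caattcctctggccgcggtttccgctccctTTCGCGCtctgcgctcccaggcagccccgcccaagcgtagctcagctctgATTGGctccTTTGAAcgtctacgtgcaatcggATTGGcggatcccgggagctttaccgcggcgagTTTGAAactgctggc
Cdc20, activator of mitotic protein degradation, chr4:118437344-118437503, minus strand: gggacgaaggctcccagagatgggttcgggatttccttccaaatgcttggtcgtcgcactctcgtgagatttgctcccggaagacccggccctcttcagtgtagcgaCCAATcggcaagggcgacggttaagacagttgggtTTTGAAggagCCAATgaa
The Mcm5 stretch holds 2 E2F matches that overlap on opposite strands, and the Mcm6 stretch holds 4 such matches in 2 places. Neither holds a CHR. The Cdc20 stretch holds 1 CHR between 2 CCAAT boxes and no E2F match, and the Cdk1 stretch holds 1 E2F match, 2 CHRs and 2 CCAAT boxes. Other members called or described here do not show the same pattern: in the same 160 bases Cdca3, Kif23 and Plk1 hold 0 CHRs, each with 1 elsewhere in its window, and Rrm2 and Tyms hold 0 E2F matches.

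The microRNA that the knockout lacks is shown in both of its mature forms, since it defines the genotype. Its gene lies on chromosome 11 in GRCm38.p6, and capitals mark the seed, bases 2 to 8.
mmu-miR-22-3p, chr11:75463772-75463793, plus strand: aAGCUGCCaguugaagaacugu
mmu-miR-22-5p, chr11:75463734-75463755, plus strand: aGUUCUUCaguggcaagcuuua

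All values below are log2 intensities after background correction and quantile normalization, and differences are log2 differences ± SE from 1 limma model of all 12 arrays. A gene passed when its adjusted p (Benjamini-Hochberg over 12380 features) was under 0.05. Raw intensity averaged 156 to 218 per array, and the share of probes detected was 31.4% to 35.0%. Levels of different genes come from different probes and are not compared. RNA of markers of several cell types moved with exposure. The log2 of the summed level of 8 measured alveolar macrophage markers (of 13 listed), each detected on every array, was 14.34 to 14.42 in wild-type PBS, 13.61 to 13.95 in wild-type nCB, 14.26 to 14.44 in knockout PBS and 14.15 to 14.25 in knockout nCB. For 9 of 11 markers of monocytes and interstitial macrophages it was 10.36 to 10.48, 12.65 to 12.93, 10.15 to 10.65 and 11.69 to 12.26 in the same order of groups. For 8 of 11 markers of conventional dendritic cells it was 9.10 to 9.22, 10.51 to 10.78, 8.705 to 8.898 and 9.71 to 10.52, with no overlap between exposures in either genotype. T and NK cell markers (5 of 10 measured) reached 8.39 to 9.12, 8.78 to 9.70, 8.35 to 9.06 and 8.55 to 9.44, ranges that overlap. Such a sum is carried most by its brightest markers, and markers of a list did not always move together. The nCB difference was above zero for 6 of 8 dendritic markers in wild type (median 0.15, highest 2.57). In the knockout it was above zero for 7 (median 0.29, highest 2.29). For alveolar macrophage markers it was below zero for 8 of 8 in wild type and 4 in the knockout. Of 6 measured neutrophil markers, 3 passed lower with nCB in wild type and 1 passed higher in the knockout. Of 3 B cell markers, 1 passed lower in wild type and 0 passed in the knockout. All 5 measured epithelial markers were detected on every array, with sums of 11.85 to 13.11 over the 4 groups, and 0 passed with nCB. The part of these marker shifts in the cell cycle genes was not tested.

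Carbon black was first compared with PBS in wild-type mice, which asks whether the sorted cells then carried more RNA for DNA replication or mitosis. Calls went in both directions, and no more often than among all features. Of the 35 genes, 3 rose (Tyms, Cdk1 and Cdca3) and 2 fell (Mcm4 and Kif23), while 8.88% of all features rose and 9.22% fell. An unadjusted p under 0.05 was reached by 7 genes that were higher and 3 that were lower, against 29.4% of all features in either direction. The arrays of both groups did not overlap for 7 genes higher and 4 lower under nCB, against 15.4% and 18.7% of all features. These shares lie near those of all features. The median log2 difference was 0.07 over the 35 genes and -0.02 over all features. The 95% interval lay within 1 log2 unit of no change for 34 of the 35 genes, the exception being Kif23 with a lower bound of -1.04.

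Among the genes of nucleotide supply, Tyms, thymidylate synthase, which makes the thymidine nucleotide for DNA, rose. Its log2 intensities were 6.82, 7.00 and 7.01 in wild-type PBS and 7.41, 7.28 and 7.53 in wild-type nCB. All 3 nCB arrays lay above all PBS arrays, with a log2 difference of 0.46 ± 0.12 (1.38-fold, limma adjusted p = 0.0161). Leaving out wild-type PBS 1 or wild-type nCB 3 raised its adjusted p to 0.0716 and 0.0627, past the threshold. Of its other probes, which are dimmer, 1 gave a difference of 0.40 ± 0.19 and 1, detected on 4 arrays, gave -0.04 ± 0.13. Rrm2, the regulated subunit of ribonucleotide reductase, was 0.37 ± 0.15 higher (adjusted p = 0.105), with a second probe at -0.09 ± 0.14. Tk1, the thymidine kinase of dividing cells, was 0.31 ± 0.11 log2 units below PBS (adjusted p = 0.0669). A second, dimmer Tk1 probe gave 0.01 ± 0.28. Rrm1, the large subunit of the reductase, differed by 0.04 ± 0.15. A second Rrm1 probe, nearly as bright, gave 0.44 ± 0.18 (limma adjusted p = 0.129 with every probe as a feature).

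In the MCM helicase, the ring of 6 subunits that unwinds DNA, Mcm4 fell and the others did not pass. Mcm4 read 8.80, 8.95 and 8.88 in wild-type PBS and 8.08, 8.34 and 8.37 in wild-type nCB. The groups did not overlap, and the log2 difference was -0.61 ± 0.16 (1.53-fold lower, adjusted p = 0.0148). Without wild-type PBS 2 or without wild-type nCB 1 the adjusted p of Mcm4 rose to 0.0570 and 0.0730. The remaining subunits ran from -0.34 ± 0.16 (Mcm7, adjusted p = 0.193) to 0.19 ± 0.14 (Mcm2, adjusted p = 0.428), with Mcm5 at 0.00 ± 0.14. The 95% intervals of these other subunits all included no change. Mcm6 was at 0.04 ± 0.16, while its other probes gave -0.06 ± 0.26 and -0.09 ± 0.17.

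No call was made among the remaining replication genes in wild-type mice. The helicase loaders Cdt1 and Cdc6 differed by -0.21 ± 0.12 and 0.03 ± 0.20. The E cyclins, which drive entry into S phase, differed by 0.31 ± 0.22 (Ccne1) and 0.02 ± 0.15 (Ccne2). Pcna, the sliding clamp, differed by 0.20 ± 0.21, and Uhrf1, which carries DNA methylation over to the new strand, by 0.12 ± 0.19. Their 95% intervals reached from -0.47 to 0.78.

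Of the mitotic genes, Cdk1, the kinase that starts mitosis, rose in wild-type mice. It read 6.98, 6.47 and 6.35 in PBS and 7.24, 6.95 and 7.24 in nCB. The highest PBS array lay just above the lowest nCB array, so the groups overlapped, and the log2 difference was 0.54 ± 0.17 (1.46-fold, adjusted p = 0.0330). Leaving out wild-type PBS 2, wild-type PBS 3, wild-type nCB 1 or wild-type nCB 3 took the Cdk1 call away (adjusted p = 0.0962 to 0.152).

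Cdca3, which promotes entry into mitosis, read 7.97, 7.95 and 7.87 in wild-type PBS and 8.35, 8.26 and 8.33 in wild-type nCB. The groups were apart by more than their own spread, and the log2 difference was 0.38 ± 0.11 (1.30-fold, adjusted p = 0.0227). A second, dimmer probe of Cdca3 gave 0.11 ± 0.11. Here too the call was lost without any 1 of wild-type PBS 2, wild-type PBS 3, wild-type nCB 1 and wild-type nCB 3 (adjusted p = 0.0565 to 0.0829).

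Kif23, a kinesin of the midzone that cells need for cytokinesis, went the other way. It read 8.16, 8.42 and 8.50 in wild-type PBS and 7.54, 7.72 and 7.87 in wild-type nCB. No nCB array reached the PBS range, and the log2 difference was -0.65 ± 0.18 (1.57-fold lower, adjusted p = 0.0206). Of the other Kif23 probes, 1 gave -0.70 ± 0.12, which also passed when every probe was fitted as a feature (adjusted p = 7.04e-04), and the dimmest gave -0.11 ± 0.13. Its call was lost without wild-type PBS 2, wild-type PBS 3, wild-type nCB 1 or wild-type nCB 2 (adjusted p = 0.0529 to 0.0888).

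The kinases Aurka, Plk1 and Aurkb and the passenger proteins Cdca8 and Birc5, which together control spindle assembly and chromosome attachment, differed by 0.01 (Aurkb) to 0.31 ± 0.13 (Aurka, adjusted p = 0.143) in wild-type mice, and none passed. Mad2l1, which restrains Cdc20 until all chromosomes are attached, was 0.35 ± 0.13 higher (adjusted p = 0.0717). Cenpa, the histone variant of centromeres, was 0.32 ± 0.12 higher (adjusted p = 0.0797), and for both the nCB arrays lay above all PBS arrays. Top2a, which untangles chromosomes, differed by 0.07 ± 0.15. Spindle and midzone proteins ran from -0.31 ± 0.19 (Tpx2, the activator of Aurora A) to 0.25 ± 0.17 (Depdc1b), with Prc1, Nusap1 and Stmn1 between them. The kinesins Kif11 and Kif22 differed by 0.13 ± 0.22 and 0.21 ± 0.13.

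**Figure D1:**
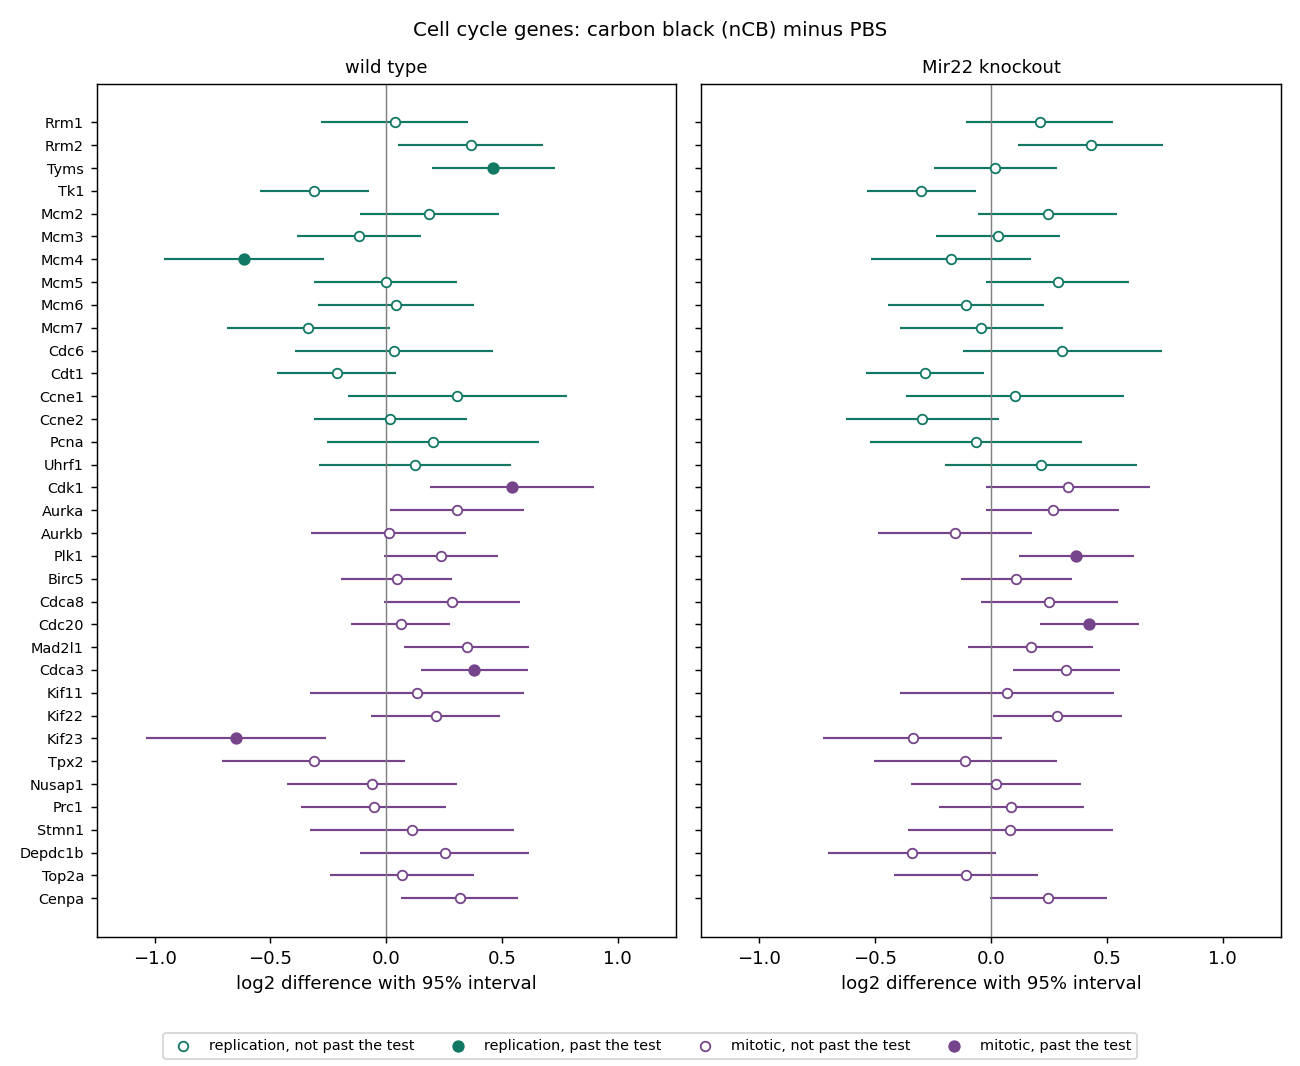
Log2 difference between nCB and PBS for the 35 measured cell cycle genes in wild-type (left) and Mir22 knockout (right) samples, with 95% intervals from limma; filled points passed at adjusted p under 0.05. Most points lie within 0.5 log2 units of no change, and in wild type the called genes stand on both sides, Cdk1 at 0.54 and Kif23 at -0.65.

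In knockout mice, carbon black was compared with PBS in the same way. By the probe used for each gene, 2 mitotic genes rose (Cdc20 and Plk1), 0 genes fell, and no replication gene passed. Among all features 8.69% rose and 7.29% fell. At an unadjusted p under 0.05, 5 genes were higher and 2 lower, against 28.4% of all features in either direction. Groups that did not overlap were found for 3 genes higher and 2 lower, against 15.2% and 15.3% of all features. The median log2 difference was 0.09 over the 35 genes and -0.01 over all features, and all 35 intervals lay within 1 log2 unit of no change.

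Cdc20, which activates the anaphase-promoting complex and so triggers chromosome separation, read 6.58, 6.59 and 6.59 in knockout PBS and 6.91, 7.05 and 7.06 in knockout nCB. The PBS arrays were almost equal and lay below every other array of the study for this probe. The log2 difference was 0.42 ± 0.10 (1.34-fold, adjusted p = 0.0084), and the call held without any single array (highest adjusted p = 0.0336). It was lost with the median over the Cdc20 probes (0.31, adjusted p = 0.210) and with median scaling of the arrays (0.41, adjusted p = 0.271). Cdc20 has 3 dimmer probes, which gave 0.27 ± 0.20, 0.34 ± 0.17 and, for 1 detected on 6 arrays, 0.01 ± 0.16. In wild-type mice, whose PBS arrays read 6.92, 6.87 and 6.94 and whose nCB arrays read 7.00, 7.02 and 6.89, the difference was 0.06 ± 0.10.

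Plk1, the Polo kinase that acts from mitotic entry to cytokinesis, read 6.30, 6.19 and 6.26 in knockout PBS and 6.45, 6.70 and 6.71 in knockout nCB. All nCB arrays were above all PBS arrays, with a log2 difference of 0.37 ± 0.12 (1.29-fold, adjusted p = 0.0410). In wild-type mice Plk1 was 0.24 ± 0.12 higher (adjusted p = 0.193). Its call in the knockout was lost when any 1 of 8 arrays was left out: wild-type PBS 2 and 3, knockout PBS 1, 2 and 3, wild-type nCB 1, and knockout nCB 2 and 3 (adjusted p = 0.0512 to 0.133).

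**Figure D2:**
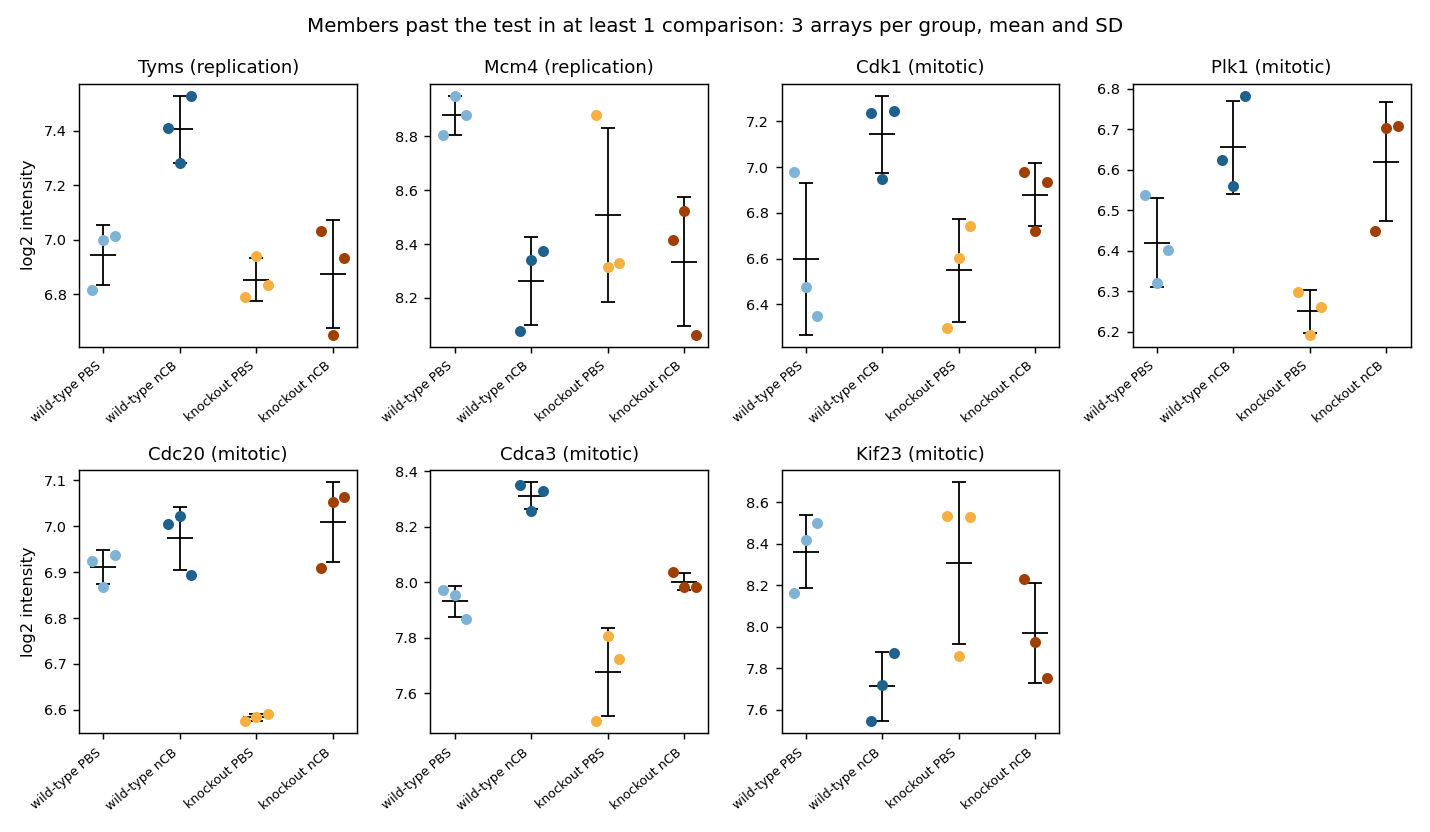
Log2 intensity on each of 12 arrays for the 7 cell cycle genes that passed in at least 1 comparison; points are arrays, bars the mean and SD of 3 arrays, and each panel has its own vertical scale. Tyms is high on the 3 wild-type nCB arrays only (7.28 to 7.53), and Cdc20 is low on the 3 knockout PBS arrays (6.58 to 6.59).

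Just short of the threshold in the knockout were Cdca3, 0.32 ± 0.11 higher (adjusted p = 0.0546, groups apart), and Rrm2, 0.43 ± 0.15 higher (adjusted p = 0.0596), whose second probe gave -0.36 ± 0.14. Tk1 was 0.30 ± 0.11 below PBS (adjusted p = 0.0811) and Cdt1 0.29 ± 0.12 below (adjusted p = 0.128), and for both the groups did not overlap. Tyms, which had risen in wild-type mice, differed by 0.02 ± 0.12. Mcm4 differed by -0.17 ± 0.16, Cdk1 by 0.33 ± 0.17 and Kif23 by -0.34 ± 0.18, each with the sign of its wild-type estimate. A second Kif23 probe gave -0.38 ± 0.12 in the knockout (adjusted p = 0.0443 with every probe as a feature), and with the median over probes Kif23 was called lower (adjusted p = 0.0351).

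Side by side, the estimated nCB difference had the same sign in both genotypes for 25 of 35 genes, above zero for 19 and below zero for 6. Among replication genes the signs matched for 11 of 16 and among mitotic genes for 14 of 19. The share of all features with matching signs was not computed, so these counts have no baseline. By the probe used, Tk1 had nearly the same value in both genotypes, -0.31 and -0.30 log2 units. Its second, dimmer probe gave 0.01 ± 0.28 in wild type and -0.29 ± 0.28 in the knockout. The genotype by nCB interaction, the knockout difference minus the wild-type difference, was then tested gene by gene. No member passed this test, and among all features 0.0404% passed above and 0.0889% below zero. An unadjusted p under 0.05 was reached by 3 members, against 9.92% of all features. They were Cdc20 (0.36 ± 0.14, adjusted p = 0.411), Tyms (-0.44 ± 0.18, adjusted p = 0.413) and Depdc1b (-0.59 ± 0.24, adjusted p = 0.428). The genes called in 1 genotype alone were therefore not shown to respond differently in the other. The 95% intervals of the interaction reached from -1.11 to 0.93 over the 35 genes.

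The second question of the design was whether loss of Mir22 changed the cell cycle genes. Under PBS, no member passed between knockout and wild type, while 0.412% of all features rose and 0.533% fell. In limma 5 members had an unadjusted p under 0.05, 1 higher and 4 lower in the knockout, against 8.28% of all features in either direction. The lowest p belonged to Cdc20, 0.33 ± 0.10 lower in the knockout (adjusted p = 0.230). Its level of 6.58 to 6.59 in knockout PBS lay below the 6.87 to 6.94 of wild-type PBS on every array. Mcm4 (-0.37 ± 0.16), Birc5 (-0.25 ± 0.11), which anchors the passenger complex, and Cdca3 (-0.25 ± 0.11) were the other 3 below, and Depdc1b (0.38 ± 0.17) the 1 above.

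Small negative differences prevailed in this comparison. Of 35 members, 29 had an estimate below zero, against 6359 of all 12380 features. The medians were -0.11 over replication genes, -0.15 over mitotic genes and -0.01 over all features. All 6 MCM subunits were below zero (-0.37 to -0.08), as were all 5 Aurora, Polo and passenger genes (-0.25 to -0.01). Groups did not overlap for 7 members lower and 1 higher (Pcna), against 7.04% and 6.16% of all features. All members were read from the same 6 arrays, so the 29 estimates are not independent of each other. The summed conventional dendritic cell markers were also lower in knockout PBS than in wild-type PBS, without overlap, and 7 of the 8 measured had an estimate below zero (median -0.37). Of the 9 measured monocyte and interstitial macrophage markers, 7 were below zero (median -0.28). No marker of either list passed, and the part of these markers in the cell cycle values was not tested.

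Under nCB, 1 member passed between the genotypes: Tyms was lower in the knockout. It read 7.03, 6.65 and 6.93 in knockout nCB against 7.41, 7.28 and 7.53 in wild-type nCB, and the groups did not overlap. The log2 difference was -0.53 ± 0.12 (1.45-fold lower, adjusted p = 0.0288), while the other Tyms probes gave -0.40 ± 0.19 and 0.01 ± 0.13. Leaving out wild-type nCB 1, wild-type nCB 3 or knockout nCB 2 took the call away (adjusted p = 0.0908, 0.0876 and 0.159). Among all features 1.93% rose and 1.49% fell, and 16.1% had an unadjusted p under 0.05, as did 6 members, all lower in the knockout.

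The other 5 were Ccne2 (-0.44 ± 0.15, adjusted p = 0.144), Cdca3 (-0.31 ± 0.11, adjusted p = 0.145), Mcm6 (-0.39 ± 0.16, adjusted p = 0.224), Cenpa (-0.29 ± 0.12, adjusted p = 0.228) and Mad2l1 (-0.27 ± 0.13, adjusted p = 0.298). Other probes gave -0.14 ± 0.11 for Cdca3, -0.09 ± 0.26 and -0.15 ± 0.17 for Mcm6, and -0.15 ± 0.16 for Mad2l1. Ccne2 was detected on only 1 knockout nCB array. Groups did not overlap for 6 members lower and 1 higher (Nusap1, a spindle protein), against 9.35% and 10.5% of all features. The monocyte and interstitial macrophage markers were also lower in knockout nCB than in wild-type nCB, with the ranges given above. Of the 9 measured, 5 passed lower. Alveolar macrophage markers went the other way, with 8 of 8 estimates above zero and 2 that passed. The part of these markers in the cell cycle values was not tested.

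**Figure D3:**
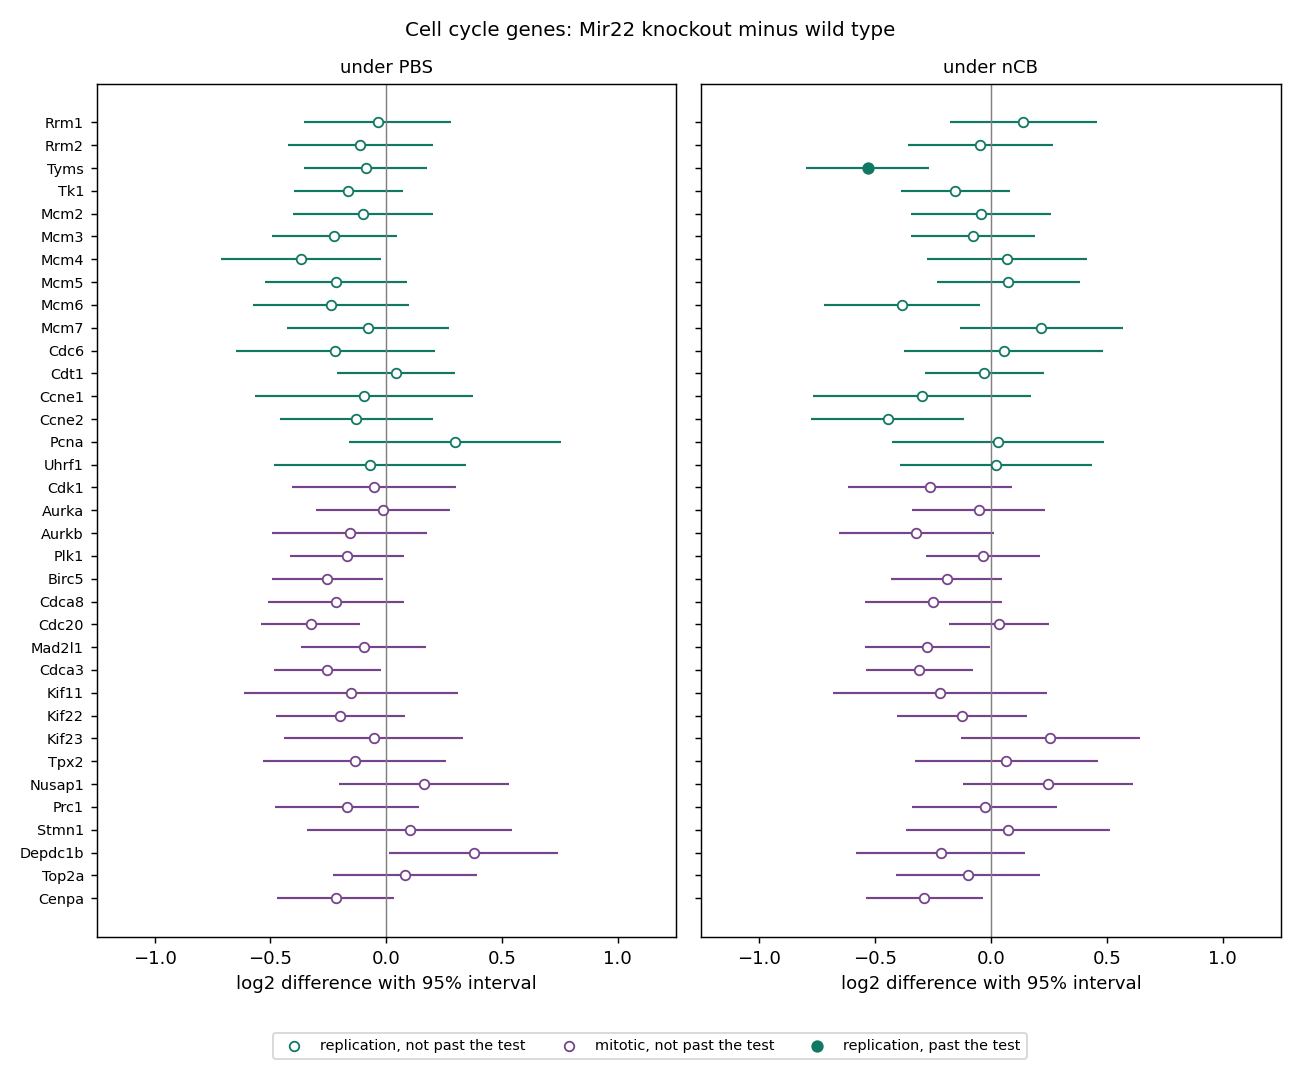
Log2 difference between Mir22 knockout and wild type for the 35 measured cell cycle genes under PBS (left) and nCB (right), with 95% intervals from limma; filled points passed at adjusted p under 0.05. Tyms under nCB, at -0.53, is the 1 filled point, and 29 of 35 points on the left lie below zero.

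Replication genes were also set against mitotic genes, by the median of their log2 differences in each comparison. With nCB the medians were 0.03 for replication and 0.13 for mitotic genes in wild type, and 0.02 and 0.11 in the knockout. Positive estimates were found for 10 of 16 replication and 15 of 19 mitotic genes in wild type, and for 9 and 14 in the knockout. Of all 12380 features, 5698 had a positive estimate in wild type and 5944 in the knockout. Between genotypes the medians were -0.11 and -0.15 under PBS, and -0.04 and -0.13 under nCB. The gap between the class medians was thus at most 0.10 log2 units in these comparisons. Separately, the difference of class means had an SD of 0.11 between replicate arrays. That SD is a spread of means on single arrays, not an error of the gap between medians.

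Seen by array, the mean over the 19 mitotic genes was 6.54 to 6.66 in wild-type PBS and 6.69 to 6.80 in wild-type nCB, ranges that did not overlap. In the knockout it was 6.41 to 6.59 under PBS and 6.56 to 6.69 under nCB, and these ranges overlapped. The mean over the 16 replication genes was 6.51 to 6.60, 6.48 to 6.60, 6.31 to 6.58 and 6.36 to 6.61 in wild-type PBS, wild-type nCB, knockout PBS and knockout nCB, all overlapping. The difference of the class means, taken as a change from its wild-type PBS mean, ran from -0.08 to 0.04 in that group and from -0.16 to -0.03 in wild-type nCB. It ran from -0.17 to 0.06 in knockout PBS and from -0.19 to 0.06 in knockout nCB, so the ranges of all 4 groups overlapped. No p is given for these class scores, because the genes were chosen with results of these data known.

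**Figure D4:**
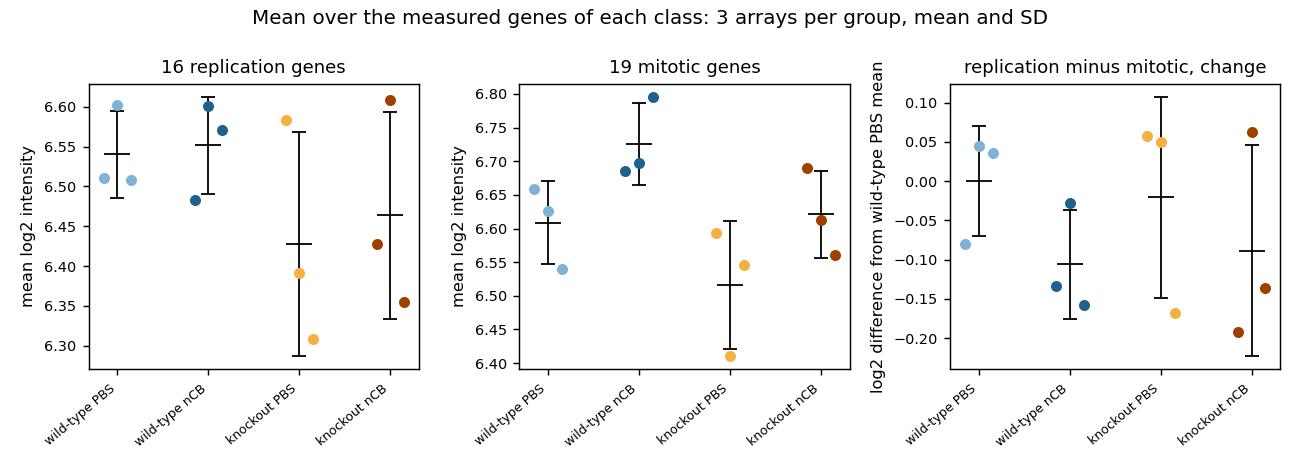
Mean log2 intensity over the 16 replication genes (left) and the 19 mitotic genes (middle) on each array, and the change of the replication minus mitotic difference from its wild-type PBS mean (right); bars are the mean and SD of 3 arrays. The mitotic mean of wild-type nCB (6.69 to 6.80) lies above that of wild-type PBS (6.54 to 6.66), while the replication ranges overlap in all 4 groups.

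Among genes that decide whether a cell enters the cycle, Ccnd1 and Cdkn1a rose with nCB in both genotypes. Genes outside the 43 were taken from lists of cyclin-dependent kinase inhibitors (6 of 7 measured), genes of G1 entry (18 of 19), other replication genes (27 of 34), other mitotic genes (25 of 39) and macrophage growth factors and regulators (7 of 12). Ccnd1, cyclin D1, which partners CDK4 and CDK6 in G1, read 7.57, 7.27 and 7.56 in wild-type PBS and 9.44, 9.06 and 9.41 in wild-type nCB. In the knockout it read 7.26, 7.79 and 6.91 under PBS and 8.63, 8.45 and 8.85 under nCB. In both genotypes all nCB arrays lay above all PBS arrays. Ccnd1 rose by 1.84 ± 0.19 log2 units in wild type (adjusted p = 5.19e-06) and by 1.33 ± 0.19 in the knockout (adjusted p = 1.68e-04). All 3 Ccnd1 probes rose in both, by 0.80 to 1.90.

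Cdkn1a, which encodes the inhibitor p21 that holds cyclin-dependent kinases in check, rose as well. It read 8.66, 8.91 and 8.56 in wild-type PBS, 9.46, 9.59 and 9.77 in wild-type nCB, 8.66, 8.55 and 8.52 in knockout PBS, and 9.44, 9.33 and 9.45 in knockout nCB. The rise was 0.89 ± 0.12 in wild type (adjusted p = 7.77e-05) and 0.83 ± 0.12 in the knockout (adjusted p = 1.97e-04), with no overlap between exposures and the same sign for all 3 probes. An RNA of cell cycle entry and an RNA of cell cycle arrest were thus both higher under nCB, and the interaction passed for neither (Ccnd1 -0.51 ± 0.27, adjusted p = 0.569, and Cdkn1a -0.06 ± 0.17, adjusted p = 0.937).

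Cdk4, the partner of cyclin D1, rose by 0.75 ± 0.14 in wild type (adjusted p = 0.0012) and was 0.43 ± 0.14 higher in the knockout (adjusted p = 0.0504). Rbl1, the pocket protein p107, fell by 0.64 ± 0.14 in wild type (adjusted p = 0.0038) and by 0.45 ± 0.14 in the knockout (adjusted p = 0.0364), the second call being lost without knockout PBS 1, knockout nCB 2 or knockout nCB 3 (adjusted p = 0.0615 to 0.151). E2f5, an E2F factor, rose by 0.58 ± 0.15 in wild type (adjusted p = 0.0162), and missed the threshold when wild-type PBS 1 or wild-type nCB 3 was left out (adjusted p = 0.0798 and 0.0760). In the G1 entry list 3 genes thus rose and 1 fell of 18 in wild type, with a median of -0.08, and 2 rose and 1 fell in the knockout, with a median of 0.10. Beside these counts and those that follow, 8.88% of all features rose and 9.22% fell in wild type, and 8.69% rose and 7.29% fell in the knockout. E2f6, the second to rise there, passed at an adjusted p of 0.0493 and missed the threshold without any 1 array other than knockout nCB 3 (adjusted p = 0.0547 to 0.152). Of the kinase inhibitors 1 of 6 rose in wild type and 2 in the knockout, where Cdkn2c, the CDK4 inhibitor p18, joined Cdkn1a (0.57 ± 0.15, adjusted p = 0.0134; 0.0544 without knockout PBS 2 and 0.0583 without knockout nCB 3).

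The replication and mitotic genes outside the 43 are read against the same shares of all features. In wild type 0 of 27 other replication genes rose and 2 fell, with a median of -0.07, and 0 of 25 other mitotic genes rose and 2 fell, with a median of 0.07. In the knockout 1 replication gene rose and 1 fell, and 0 mitotic genes rose and 2 fell, with medians of 0.04 and 0.05. Besides the 2 genes described next, these were Rpa1 (-0.36 ± 0.12, adjusted p = 0.0384) and the CDK-activating phosphatase Cdc25b (-0.48 ± 0.14, adjusted p = 0.0206) in wild type. In the knockout they were Cdc7, a kinase that fires replication origins (0.66 ± 0.17, adjusted p = 0.0154), and the condensin subunit Smc4 (-0.42 ± 0.13, adjusted p = 0.0331). Smc4 was detected on all 3 knockout PBS arrays but on only 1 knockout nCB array. The size of its fall therefore rests in part on values below detection. The Rpa1 call was lost without any 1 wild-type array other than nCB 3 (adjusted p = 0.0644 to 0.134), and that of Cdc25b without PBS 2, nCB 1 or nCB 3 of the wild type (adjusted p = 0.0536 to 0.0986). The Cdc7 call was lost without PBS 3 or nCB 2 of the knockout (adjusted p = 0.0578 and 0.0737), and that of Smc4 without PBS 1, PBS 2, nCB 1 or nCB 2 of the knockout (adjusted p = 0.0869 to 0.121). Rpa3, a subunit of the protein that coats single-stranded DNA, was lower in both genotypes (-0.48 ± 0.13, adjusted p = 0.0161, and -0.40 ± 0.13, adjusted p = 0.0434). Leaving out nCB 1 or nCB 2 of the wild type took its wild-type call away (adjusted p = 0.0603 and 0.0763), and its knockout call was lost without any 1 wild-type PBS array, wild-type nCB 1, or PBS 1, PBS 2, nCB 2 or nCB 3 of the knockout (adjusted p = 0.0528 to 0.171). Anln, anillin, a scaffold of the cytokinetic ring, was lower in both by 1 probe (-0.67 ± 0.12, adjusted p = 0.0013, and -0.53 ± 0.12, adjusted p = 0.0077), while its second probe gave -0.04 ± 0.15 and 0.00 ± 0.15.

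Csf1, the growth factor that macrophages need to survive and divide, was not detected on any of the 6 PBS arrays and was detected on all 6 nCB arrays. It read 5.30, 5.63 and 5.10 in wild-type nCB and 5.64, 5.34 and 5.85 in knockout nCB. With the PBS arrays set to their lowest detected signal, Csf1 was at least 1.75-fold higher under nCB in wild type and at least 2.07-fold higher in the knockout. The limma test was run on the plain differences, with PBS values below detection, and not on these bounds (adjusted p = 2.11e-04 and 2.45e-05). Csf1 passed the detection filter through the nCB arrays alone. In the list of 7 growth factors and regulators it was the 1 that rose in either genotype, and Klf2, a factor tied to quiescence, fell in wild type by 0.49 ± 0.15 (adjusted p = 0.0312), a call lost without any 1 of the 6 wild-type arrays (adjusted p of 0.0532 or above).

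Between genotypes the lists gave 1 call under PBS and 3 under nCB. Among all features 0.412% were higher and 0.533% lower in the knockout under PBS, and 1.93% higher and 1.49% lower under nCB. Bub1b, the checkpoint kinase BUBR1, read 8.17, 8.01 and 7.96 in wild-type PBS and 6.18, 5.58 and 5.93 in knockout PBS. It read 7.59, 7.75 and 7.65 in wild-type nCB and 6.04, 6.36 and 6.28 in knockout nCB. Every knockout array lay below every wild-type array. The difference of Bub1b between knockout and wild type was -2.15 ± 0.15 log2 units under PBS (adjusted p = 4.71e-07) and -1.44 ± 0.15 under nCB (adjusted p = 3.94e-05), and its second probe gave -1.31 ± 0.18 and -0.70 ± 0.18. Its partners at the spindle checkpoint, the members Mad2l1 and Cdc20, differed by -0.10 ± 0.13 and -0.33 ± 0.10 between the genotypes under PBS. Bub3, from the same list as Bub1b, did not pass. Its mean was 5.53 in wild-type PBS and 5.21 in knockout PBS, without overlap of the arrays. Under nCB its means were 5.51 in wild type and 5.50 in the knockout. Whether the Bub1b difference follows from the loss of Mir22 was not tested.

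Ccnd2, cyclin D2, was higher in knockout nCB (8.46, 8.70 and 8.40) than in wild-type nCB (7.68, 7.78 and 7.88), by 0.74 ± 0.13 log2 units (adjusted p = 0.0059), and all 3 of its probes were higher. With median scaling of the arrays in place of quantile normalization this call was lost (adjusted p = 0.345). Under PBS its groups overlapped, at 8.07 to 8.29 in wild type and 8.07 to 8.51 in the knockout. Rb1, the retinoblastoma protein that restrains E2F, was 0.67 ± 0.15 higher in knockout nCB (adjusted p = 0.0220) and 0.51 ± 0.15 higher in knockout PBS (adjusted p = 0.168). Its call under nCB was lost without wild-type nCB 1, wild-type nCB 3, knockout nCB 1 or knockout nCB 2 (adjusted p = 0.0600 to 0.101).

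**Figure D5:**
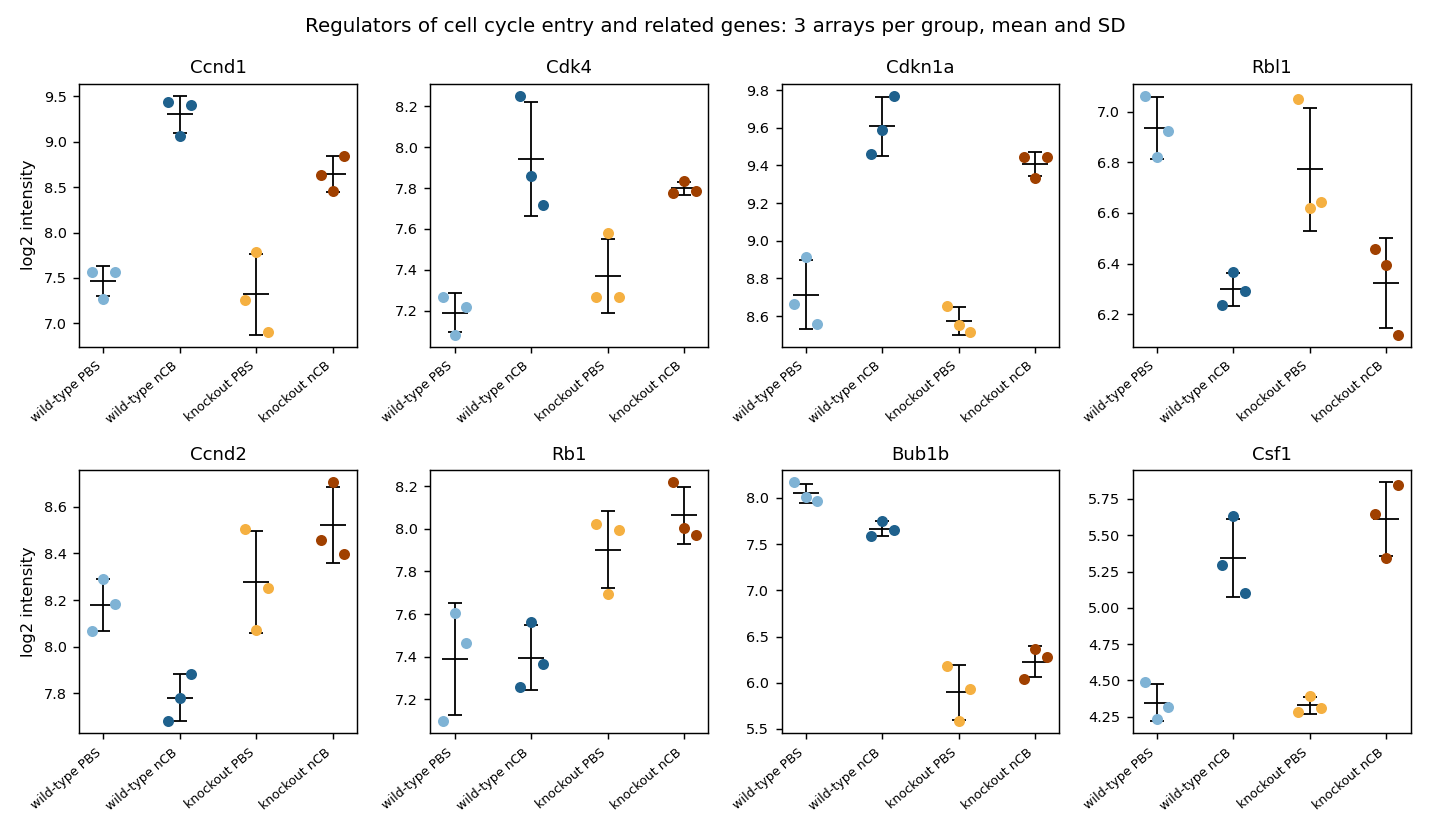
Log2 intensity on each of 12 arrays for 8 genes outside the 43 members, with the mean and SD of 3 arrays per group; each panel has its own vertical scale, and Csf1 was not detected on the PBS arrays. Ccnd1, Cdkn1a and Csf1 are higher under nCB in both genotypes, and Bub1b is lower on all 6 knockout arrays.

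Probes of 1 gene did not always agree. The 35 genes were read by 53 probes in all, and 12 genes had more than 1, up to 4. All probes of a gene had the same sign for 7 of these 12 genes with nCB in wild type and for 7 in the knockout, for 9 between genotypes under PBS and 7 under nCB, and for 3 in the interaction. Calls that rest on 1 of several probes, as for Tyms, Cdc20 and Cdca3, are calls of that probe, the brightest of its gene.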

How the data were processed

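RNA of 12 samples was measured on Illumina bead arrays. Per the labels' protocols, total RNA was copied into biotin-labelled cRNA. The deposited intensity table gives, per array, the signal of 45281 probes and a detection p-value for each, exported with GenomeStudio per the submitters' processing notes (version not given in the sources used here). The authors' matrix of processed values is on a log2 scale, judged from the values, with the same column median of 3.12 on all arrays, and served as an alternative. Its normalization is otherwise not given in the sources used here.

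From the intensities, neqc of limma 3.58.1 in R 4.3.3 gave background-corrected, quantile-normalized log2 values (offset 16). The filter kept 17346 probes with a detection p under 0.05 on 3 or more arrays, and the probe with the highest mean stood for each symbol (12380 features, 2571 of them without a symbol). Symbols came from the platform annotation, in which 20501 probes carry 1 symbol and 11 carry several. 1 limma model with 4 group means was fitted to 12 arrays (8 residual and 6.86 prior degrees of freedom), and 5 two-sided comparisons were adjusted over all features by the Benjamini-Hochberg method. Intervals are 95%. The smallest p of an exact permutation test of 3 arrays against 3 is 0.1, so genes were tested through limma. For a probe detected on none of a group's arrays, a bound on the fold was taken against the higher of its own value and the lowest detected signal of each array.

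The members and gene lists were chosen with earlier results of these data known. The text names all 43 members, and of each list up to 4 genes with the smallest p per comparison. The script was tested on simulated data. Arrays with equal replicate numbers were not treated as pairs (5 of 18 same-numbered pairs had deviations correlated over 0.1). The number of arrays limits the precision. Alternatives were median scaling, no background correction, no filter, a detection p under 0.01, other rules for probes, the deposited values, a replicate block, the compared groups alone and each array left out. A slide block was not run, since the files used here name no slide.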

Additional observations from a re-analysis of the deposited data

How the results depend on the processing

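No member changed direction in a call under any alternative, but no member call was kept in every alternative. Of the 5 members called with nCB in wild type, 0 remained called with median scaling, and 8 members were called without background correction, 3 without the detection filter, 3 with the median over probes and 2 with the deposited values. In the knockout 2 were called, against 0 with median scaling, 4 without background correction, 1 with a replicate block and 1 with the compared groups alone. With the median over probes the knockout count stayed at 2, with Kif23 (lower, adjusted p = 0.0351) in place of Cdc20 (adjusted p = 0.210). Between genotypes under PBS 0 were called, and 1 without the detection filter (Cdc20, lower, adjusted p = 0.0476). Under nCB 1 was called, against 0 with median scaling, with the median over probes, with the deposited values and with the compared groups alone, and 2 without background correction. The interaction gave 0 calls in all settings in which it was fitted. Leaving out 1 array gave 1 to 6 calls with nCB in wild type (1 without wild-type PBS 2 and 1 without wild-type nCB 1), 1 to 3 in the knockout, 0 to 0 between genotypes under PBS, 0 to 1 under nCB, and 0 to 0 for the interaction. Where an alternative left out a sample or tested other features, its construction changed the test, and otherwise the cause was not tested.

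The replication minus mitotic gap of medians with nCB in wild type was -0.10, -0.25 with the deposited values, and -0.23 to -0.034 with 1 array left out. In the knockout it was -0.08, and -0.16 to 0.058 with 1 array left out. Between genotypes it ran from -0.068 to 0.072 under PBS and from 0.059 to 0.11 under nCB, and for the interaction from -0.028 to 0.11, so its sign was not settled in 3 comparisons.

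Median scaling moved the median of all features to -0.11 with nCB in wild type (replication genes -0.08, mitotic genes 0.06), to -0.13 between genotypes under PBS (-0.25 and -0.29) and to 0.10 in the interaction. It called 531 features higher and 754 lower with nCB in wild type (1099 and 1141 in quantile-normalized values), 498 and 300 in the knockout (1076 and 902), 18 and 60 between genotypes under PBS (51 and 66), 38 and 81 under nCB (239 and 185), and 0 and 6 in the interaction (5 and 11). Under nCB between genotypes the features called were also fewer without the detection filter (113 and 108), with the deposited values (81 and 59) and with the compared groups alone (141 and 125). Between genotypes under PBS the deposited values called 30 and 47. The replicate block, with numbers that do not pair the arrays, moved the count of called members in the knockout from 2 to 1 (Plk1, adjusted p = 0.0611) and changed no other member's call. The replicate numbers are labels only. Ccnd1, Cdkn1a, Csf1 and Bub1b kept their calls in all alternatives, as did Cdk4, Rbl1 and Anln in wild type.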
